A study of Homo sapiens with 9 samples.

Results

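The cytosolic and mitochondrial heat shock chaperones were followed across 3 groups of FaDu cells. The set was given by name, as 42 gene symbols, and it leaves out the chaperones of the endoplasmic reticulum. The 42 symbols matched 43 rows of the 58735 in the count table, because HSPA14 has 2 rows. All 43 rows passed the filter on low counts and were tested. By role they were 8 rows of HSP70 proteins, 3 of the related HSP110 proteins, 3 of HSP90 proteins, 2 of small heat shock proteins, 2 of the mitochondrial chaperonin, 8 of J-domain proteins, 8 of the cytosolic chaperonin TRiC, 7 of other co-chaperones and 2 of heat shock transcription factors.

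Chaperones bind unfolded or partly folded proteins and keep them from aggregating while they fold. HSP70 proteins bind short exposed stretches in a cycle driven by ATP, in which J-domain proteins deliver clients and start the hydrolysis, and nucleotide exchange factors, HSP110 among them, release the client. HSP90 takes over later folding steps of kinases and steroid receptors with its co-chaperones, and the ring-shaped TRiC folds actin and tubulin. When unfolded proteins build up, the transcription factor HSF1 binds heat shock elements, repeats of the unit nGAAn in alternating orientation, and raises many of these genes together. Carcinoma cells are known for high chaperone levels.

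FaDu is an established line of human hypopharyngeal squamous cell carcinoma, without further treatment here per the labels. The labels give 3 groups of 3 biological replicates: normal control cells, cells with knockdown of AMIGO2, and cells with the same knockdown and with CAPN2 overexpressed. AMIGO2 encodes a leucine-rich repeat protein of the cell surface, and CAPN2 the catalytic subunit of calpain-2, a protease that needs calcium. The sources used here do not give how the knockdown and the overexpression were made, nor whether a line is 1 clone. All values come from bulk RNA sequencing of total RNA. Levels are in CPM, read counts relative to library size with TMM factors, and fold changes are log2 values with their standard error (SE) from edgeR's quasi-likelihood model over all 9 libraries.

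AMIGO2 RNA was not lower in the libraries labelled with its knockdown, and CAPN2 RNA was little higher in those labelled with its overexpression. AMIGO2 (ENSG00000139211, minus strand of chromosome 12, 47075707 to 47079951 on GRCh38) stood at 29.5, 26.1 and 27.2 CPM in the control libraries, 24.5, 31.3 and 27.3 CPM in the knockdown-labelled libraries, and 42.8, 35.3 and 38.8 CPM in the CAPN2-labelled libraries. The first 2 sets overlapped, and the CAPN2-labelled set lay above both. CAPN2 (ENSG00000162909, plus strand of chromosome 1, 223701593 to 223776018 on GRCh38) stood at 462 ± 13.9 CPM in the control libraries, 418 ± 20.3 CPM in the knockdown-labelled libraries and 499 ± 1.29 CPM in the CAPN2-labelled libraries (SD, n = 3), a difference between the last 2 of 1.19-fold (log2 0.26 ± 0.079, edgeR adjusted p = 0.012). That call was lost without replicate 1 of the knockdown plus CAPN2 label (adjusted p = 0.0601), with no filter on low counts (adjusted p = 0.0871) and with a correction for GC content and length (log2 0.14, adjusted p = 0.0771). CAPN2 was not called between those libraries and control (log2 0.11, 95% interval -0.057 to 0.28), although 2 alternatives called it higher there: fitting those 2 groups alone (log2 0.12, adjusted p = 0.0389) and scaling by upper quartiles (log2 0.21, adjusted p = 0.0278). The groups are therefore called by their labels: "knockdown-labelled" for libraries labelled AMIGO2 knockdown, and "CAPN2-labelled" for libraries labelled AMIGO2 knockdown plus CAPN2. No direction given rests on a measured knockdown.

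Library totals ran from 15158607 to 19737562 counts, so that 3 counts, the upper limit that a count of 0 allows, lay between 0.149 and 0.203 CPM, for counting error only. The knockdown-labelled libraries were the least alike, with a mean chi-square per gene of 20.9 to 21.5 between them, against 2.69 to 5.04 within control, 3.01 to 7.52 within the CAPN2-labelled libraries and 28.96 to 138 between groups. The 8 squamous epithelium markers were all tested, with a summed level of 7546 to 8028 CPM in the control libraries, 3693 to 4805 CPM in the knockdown-labelled and 4061 to 4622 CPM in the CAPN2-labelled libraries. KRT5 carried most of the fall from control, at 4437 ± 133, 1207 ± 180.3 and 1616 ± 121 CPM (SD, n = 3), and the other markers were divided. Against control 6 were lower in the knockdown-labelled libraries and 5 in the CAPN2-labelled ones, where DSG3 was higher (log2 0.63). Between the labelled sets 4 were lower in the CAPN2-labelled libraries and 3 higher (KRT5, TP63 and DSG3). Of 5 endothelial markers 2 were tested (summed 17.6 to 22.5, 43.3 to 49.5 and 16.2 to 16.5 CPM in the same order). In the knockdown-labelled libraries against control CDH5 was higher (log2 1.54) and VWF lower (log2 -1.21). Of the 5, 1 was at 0 in every library, as was 1 of 5 fibroblast markers (summed 7.98 to 15.6 CPM over all libraries). The 5 blood and immune markers summed to at most 0.448 CPM. The part of these marker levels in the chaperone results was not tested.

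Heat shock elements were looked up first, because they are the sequence through which HSF1 acts on this family. The RefSeq promoter table (GRCh38.p14) held windows of 250 bases before an annotated transcript start for 37 of the 42 symbols, all except HSPA14, ST13, CCT6A, FKBP4 and HSF1. Some genes have several such starts, and the 37 members have 52 windows. An element of 3 units was searched as GAANNTTCNNGAA or its reverse complement TTCNNGAANNTTC, so both strands were covered. It was found in 6 of the 37 members, or 16.2%, against 152 of 27305 genes with a window, or 0.557%, where a match in any window of the gene counts. Per window it was 11.5% of the 52 against 0.441% of 35116. The 2-unit core GAANNTTC or TTCNNGAA, which lies inside every 3-unit match, was found in 16 of 37 members (43.2%) against 14.0% of genes, and in 30.8% of their windows against 11.6%. A match describes the letters in this window only. The sites of the 6 members follow, each with flanking bases, in the direction of the gene, with the matched bases in capitals; overlapping matches in HSPD1 are joined.
HSPA6 at chr1:161524458-161524486, plus strand: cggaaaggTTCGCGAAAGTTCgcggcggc
HSPA8 distal at chr11:123062346-123062374, minus strand: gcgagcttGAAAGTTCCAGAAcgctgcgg
HSPA8 proximal at chr11:123062171-123062199, minus strand: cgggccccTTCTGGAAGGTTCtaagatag
HSP90AA1 at chr14:102087112-102087140, minus strand: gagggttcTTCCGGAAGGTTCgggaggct
HSP90AB1 distal at chr6:44247770-44247798, plus strand: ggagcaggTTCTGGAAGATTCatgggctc
HSP90AB1 proximal at chr6:44247823-44247851, plus strand: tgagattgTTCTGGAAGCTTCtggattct
HSPD1 at chr2:197500063-197500090, minus strand: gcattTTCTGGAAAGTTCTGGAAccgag
DNAJB6 at chr7:157336865-157336893, plus strand: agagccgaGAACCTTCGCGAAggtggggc
The start next to each matched window is not always the outermost start of the gene in the annotation used for counting. It is the outermost for HSPA6, and lies inside the gene by 1094 bases for HSPA8, 1623 for DNAJB6, 1777 for HSP90AB1, 16897 for HSPD1 and 52655 for HSP90AA1. HSPD1 and HSP90AA1 have 2 windows each and HSP90AB1 has 3, of which 1 holds the match. The last base of the match lay 43 bases before that start for the proximal site of HSPA8, 62 for HSPA6, 76 for HSP90AA1, 100 for the proximal site of HSP90AB1, 119 for DNAJB6 and 228 for HSPD1. HSPA8 and HSP90AB1 each held a second site, 218 and 153 bases before the start.

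HSPA6 had the largest differences of all members in both comparisons with the CAPN2-labelled libraries, so its whole window is shown (chr1:161524290-161524539, GRCh38.p14, plus strand), with every 2-unit core and the 3-unit element in capitals.
HSPA6 window: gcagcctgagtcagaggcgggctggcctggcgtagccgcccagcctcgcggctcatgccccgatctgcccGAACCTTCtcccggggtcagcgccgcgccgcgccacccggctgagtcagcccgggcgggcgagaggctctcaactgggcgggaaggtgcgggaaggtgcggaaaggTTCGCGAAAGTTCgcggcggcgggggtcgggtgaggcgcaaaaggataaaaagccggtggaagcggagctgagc
In the CAPN2-labelled libraries against the knockdown-labelled ones, 5 of the 6 members with a 3-unit element were lower and DNAJB6 was not called. Of the 10 members with a 2-unit core only, 8 were lower, and of the 21 with no match 17 were lower and 1 was higher. The 10 include HSPA1A, HSPA1B, HSPB1 and DNAJB1, and the 21 include HSPH1 and BAG3. HSPE1 is also among the 21, and its window (chr2:197500129-197500378) does not reach the HSPD1 element. Windows of the 21 can lie inside the gene as well. That of HSPA2 begins at 64540491 and the gene at 64535905, and that of CCT5 at 10250287 and the gene at 10249921. For CCT3, on the minus strand, the window ends at 156338542 and the gene at 156367873. No match therefore describes the windows searched and not every start of the gene. The median log2 fold change was -1.08 over the 6, -0.996 over the 10 and -0.72 over the 21. The ranges of the 3 sets overlapped, from -4.56 to -0.14, from -2.69 to 0.10 and from -1.68 to 0.31. Between these labelled sets 81.4% of all member rows and 25.6% of all genes tested were called lower. In the CAPN2-labelled libraries against control the medians were -0.87, -0.94 and -0.83 in the same order.

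Across the family, most chaperone genes were lower in the CAPN2-labelled libraries than in either other group. In the knockdown-labelled libraries against control 15 of 43 rows were lower and 5 higher, beside 18.5% and 16% of all genes tested. Only HSPB8 differed there by at least 2-fold. A member counts as called at a Benjamini-Hochberg adjusted p under 0.05 over all 16812 genes tested. Between the CAPN2-labelled and the knockdown-labelled libraries 35 of 43 rows were lower, 1 was higher and 7 were not called. Over all genes tested in this comparison 25.6% were called lower and 23.7% higher. The members' median log2 fold change was -0.80, beside 0.0087 over all genes tested. Among the 2304 genes with a mean of at least 100 CPM, a level that 30 of the 43 member rows reached, 977 were lower and 489 higher. In 16 rows the fall was at least 2-fold, and the share of all genes with such a fall was not counted.

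Against control, 36 rows were lower in the CAPN2-labelled libraries, 3 were higher (HSPA4L, HSPA9 and DNAJB2) and 4 were not called. Here 28.4% of all genes tested were called lower and 27.9% higher, and of the 2304 genes of at least 100 CPM 1103 were lower and 558 higher. The median was -0.83 over the members and 0.023 over all genes. Of the member rows 18 fell at least 2-fold, and the share of all genes doing so was not counted. Both counts of lower members held within 33 to 37 under every alternative run. The count of higher members against control fell from 3 to 1 with a correction for GC content and length. In bulk RNA, fewer cells that make a transcript and less of it per cell cannot be told apart.

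Between the knockdown-labelled libraries and control, 5 rows were higher, 15 lower and 23 not called, beside 16% of all genes called higher and 18.5% called lower. Of the 2304 genes of at least 100 CPM 720 were lower and 419 higher, or 31.25% and 18.2%. Over all 43 member rows 34.9% were lower and 11.6% higher. Only 30 of these rows reached 100 CPM, so the members' shares are not those of genes at a like level. The median was -0.039 over the members and -0.015 over all genes. The 5 higher were HSPA6, HSP90AA1, HSPA4L, HSPB8 and HSF2. The 15 lower were HSPA1A, HSPA1B, TRAP1, HSPB1, DNAJA3, DNAJB6, CCT3, CCT5, CCT6A, CCT7, BAG3, STIP1, AHSA1, CDC37 and FKBP4. This count of lower members depended on single libraries: it was 9 without control replicate 2, 8 without control replicate 3, 9 without knockdown replicate 2 and 9 without the CAPN2-labelled replicate 1, and the count of higher members was 9 without knockdown replicate 1. Of the 20 calls, 11 held under every alternative. That of HSPA6 failed only in the sum with HSPA1A and HSPA1B, which is treated with its copies further on. DNAJB6, CCT3, CCT5, CCT7, FKBP4, CDC37, TRAP1 and HSP90AA1 each lost their call when some single library was left out. The first 5 of these also lost it with upper-quartile factors, with no filter and in the fit to the 2 groups compared. Conversely, HSPH1, CCT8, PTGES3 and the HSPA14 row ENSG00000187522 were called higher without knockdown replicate 1 (log2 0.24, 0.23, 0.25 and 0.44), and HSPE1 was called lower without knockdown replicate 3 (log2 -0.31).

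**Figure D1:**
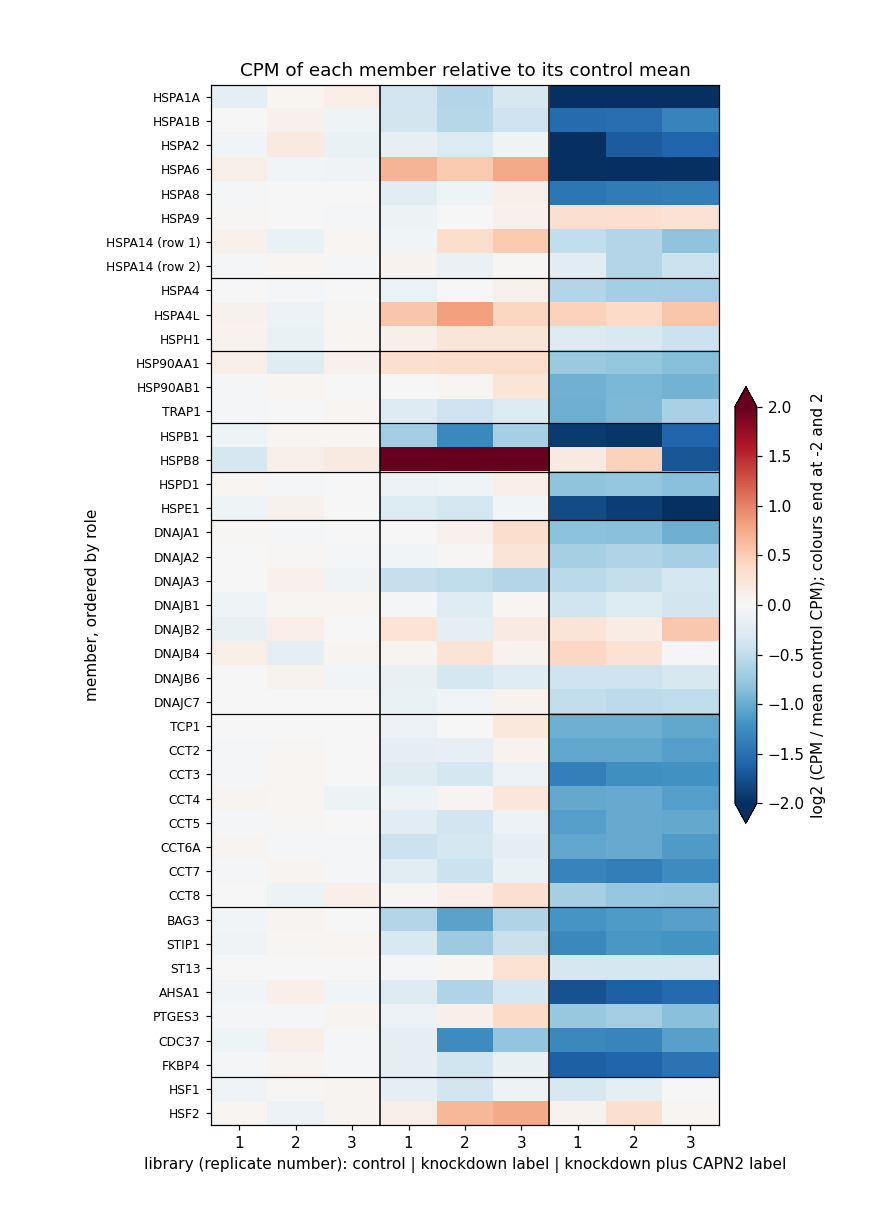
CPM of each of the 43 member rows (vertical axis, grouped by role) in each of the 9 libraries (horizontal axis), as the log2 ratio to the member's mean in control, with colours ending at -2 and 2. The 3 columns of the CAPN2-labelled libraries are blue for most rows, and HSPA9 and HSPA4L are among the rows that are not.

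The share of all counts that fell on members was 1.63%, 1.60% and 1.61% in the control libraries, 1.59%, 1.59% and 1.73% in the knockdown-labelled libraries, and 0.929%, 0.940% and 0.933% in the CAPN2-labelled libraries. The first 2 groups overlapped, and every CAPN2-labelled library lay below all others. HSP90AA1 and HSP90AB1 together took 0.425 ± 0.0147%, 0.502 ± 0.0184% and 0.245 ± 0.0038% of counts (SD, n = 3) in the same order. The 8 TRiC genes took 0.379 ± 0.0049%, 0.358 ± 0.0215% and 0.190 ± 0.0018%.

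Levels between genes are comparable only per length, as RPKM, the CPM per kilobase of annotated exon. In control the highest level was that of HSP90AB1 at 993 ± 28.2 RPKM (SD, n = 3), the constitutive cytosolic HSP90. HSPA8, HSP90AA1, HSPB1 and HSPD1 followed at 342 ± 5.38, 277 ± 37.0, 246 ± 11.6 and 230.2 ± 6.83 RPKM. The lowest were HSPB8 at 0.210 ± 0.0385, HSPA4L at 1.43 ± 0.107 and HSPA6 at 3.75 ± 0.265 RPKM. HSP90AB1 was also highest in the CAPN2-labelled libraries, at 517 ± 8.75 RPKM.

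Among the HSP70 genes, 7 of 8 rows were lower and HSPA9 was higher in the CAPN2-labelled libraries against either other group. The stress-inducible HSPA6 (HSP70B′, ENSG00000173110, plus strand of chromosome 1, 161524540 to 161526910 on GRCh38) stood at 9.61, 8.55 and 8.49 CPM in the control libraries, 14.2, 12.7 and 15.0 CPM in the knockdown-labelled libraries, and 0.617, 0.532 and 0.612 CPM in the CAPN2-labelled libraries. Its 3 groups did not overlap: the knockdown-labelled libraries were highest and the CAPN2-labelled ones lowest, with 10, 9 and 10 reads. HSPA6 was 23.5-fold lower in the CAPN2-labelled than in the knockdown-labelled libraries (log2 -4.56 ± 0.20, edgeR adjusted p = 5.55e-12) and 15.0-fold lower than in control (log2 -3.90 ± 0.21, edgeR adjusted p = 3.28e-11). It was, between the knockdown-labelled libraries and control, 1.57-fold higher (log2 0.65 ± 0.14, edgeR adjusted p = 0.00131).

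HSPA1A and HSPA1B are neighbouring genes for the same major inducible HSP70. HSPA1A (ENSG00000204389, plus strand of chromosome 6, 31815464 to 31817946 on GRCh38) stood at 84.1, 99.4 and 105 CPM in the control libraries, 74.2, 63.9 and 76.8 CPM in the knockdown-labelled libraries, and 24.2, 21.5 and 24.2 CPM in the CAPN2-labelled libraries. HSPA1B (ENSG00000204388, plus strand of chromosome 6, 31827735 to 31830255 on GRCh38) stood at 89.1, 95.2 and 84.3 CPM in the control libraries, 69.4, 60.4 and 67.3 CPM in the knockdown-labelled libraries, and 30.8, 31.1 and 35.4 CPM in the CAPN2-labelled libraries. For both genes the 3 groups stepped down without overlap from control through the knockdown-labelled to the CAPN2-labelled libraries. HSPA1A was 3.07-fold and HSPA1B 2.03-fold lower in the CAPN2-labelled than in the knockdown-labelled libraries (log2 -1.62 ± 0.11, edgeR adjusted p = 1.05e-09; log2 -1.02 ± 0.10, edgeR adjusted p = 1.12e-07). Between the knockdown-labelled libraries and control the differences were 1.35-fold and 1.36-fold (log2 -0.43 ± 0.10, edgeR adjusted p = 0.00358; log2 -0.45 ± 0.10, edgeR adjusted p = 0.0013).

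The near-identical copies limit what single HSP70 rows can show. Of the 2434 windows of 50 bases in the HSPA1A transcript, 72.6% occurred letter for letter in HSPA1B, and of the 2472 in HSPA1B 71.4% occurred in HSPA1A, so reads could be placed on either or left out. HSPA6 shared 0 windows with HSPA1A and HSPA1B, and 45.5% of its 2322 windows with HSPA7, a pseudogene on the same chromosome. Of the exon bases of HSPA1B 36.5% overlap AL671762.1 on the same strand, which had 0 counts in all libraries. How the authors' counting treated reads of these kinds is not given in the sources used here. The part of such reads in the ratio that follows was not tested. The count ratio of HSPA1A to HSPA1B was 1.08 ± 0.155 in control, 1.09 ± 0.0455 in the knockdown-labelled and 0.721 ± 0.0561 in the CAPN2-labelled libraries (SD, n = 3). The last group did not overlap the others, at p = 0.1 by an exact two-sided permutation test, the smallest that 3 against 3 libraries allow. Summed into 1 row, HSPA1A, HSPA1B and HSPA6 differed by log2 -1.43 between the CAPN2-labelled and knockdown-labelled libraries and by -1.79 against control. The sum was lower in the knockdown-labelled libraries than in control (log2 -0.36, edgeR adjusted p = 0.00386), the opposite sign to HSPA6 alone. Control counts were 4640 for HSPA1A, 4303 for HSPA1B and 425 for HSPA6, so the sum follows the first 2 and does not test HSPA6.

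HSPA8, the constitutive HSC70 and the most abundant HSP70 here, stood at 1627, 1674 and 1671 CPM in the control libraries, 1413, 1568 and 1782 CPM in the knockdown-labelled libraries, and 607, 627 and 632 CPM in the CAPN2-labelled libraries. Control and knockdown-labelled libraries overlapped, and the CAPN2-labelled libraries lay below all of them, 2.55-fold below the knockdown-labelled ones (log2 -1.35 ± 0.092, edgeR adjusted p = 9.53e-10). HSPA2, a member best known from the testis, stood at 34.2, 40.3 and 32.4 CPM in the control libraries, 31.9, 29.6 and 33.6 CPM in the knockdown-labelled libraries, and 8.89, 11.2 and 11.9 CPM in the CAPN2-labelled libraries. It too was lower in the CAPN2-labelled libraries, 2.96-fold against the knockdown-labelled ones (log2 -1.57 ± 0.13, edgeR adjusted p = 1.36e-08), and its difference between the other groups was not called (log2 -0.17, 95% interval -0.42 to 0.080).

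HSPA9, the HSP70 of the mitochondrial matrix known as mortalin, was the one member higher in the CAPN2-labelled than in the knockdown-labelled libraries. It stood at 551, 546 and 534 CPM in the control libraries, 508, 549 and 578 CPM in the knockdown-labelled libraries, and 676, 687 and 667 CPM in the CAPN2-labelled libraries. The CAPN2-labelled libraries lay above the other 6, at 1.24-fold the knockdown-labelled ones (log2 0.31 ± 0.081, edgeR adjusted p = 0.00345) and 1.24-fold control (log2 0.31 ± 0.081, edgeR adjusted p = 0.00267). The second difference was lost with the correction for GC content and length (log2 0.083, adjusted p = 0.313), and the first was kept (0.20, adjusted p = 0.0199). HSPA14, a ribosome-associated HSP70, has 2 rows that share 460 bases of exon, and reads of one cannot be told from the other there. They were lower in the CAPN2-labelled than in the knockdown-labelled libraries at log2 -0.91 (ENSG00000187522) and -0.39 (ENSG00000284024). The second lost its call without the CAPN2-labelled replicate 2 (adjusted p = 0.0625).

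The HSP110 genes encode nucleotide exchange factors that work with HSP70 on aggregates. HSPA4 was lower in the CAPN2-labelled libraries, at 239 ± 10.00 CPM against 373 ± 25.7 CPM in the knockdown-labelled ones and 375 ± 5.43 CPM in control (SD, n = 3). HSPH1 fell to 144 ± 7.4972 from 208 ± 11.9 and 182 ± 13.4 CPM. HSPA4L was low and behaved differently, at 16.6 ± 1.25 CPM in the control libraries, 25.4 ± 3.56 CPM in the knockdown-labelled and 22.9 ± 1.43 CPM in the CAPN2-labelled libraries. It was higher than control in both (log2 0.62 ± 0.12, edgeR adjusted p = 0.000692, and log2 0.47 ± 0.12, edgeR adjusted p = 0.0033), and the second difference turned to log2 -0.10 and was not called with the GC and length correction. Between the CAPN2-labelled and the knockdown-labelled libraries HSPA4L was not called (log2 -0.15, edgeR adjusted p = 0.317). With that correction it was called lower there (log2 -0.46, edgeR adjusted p = 0.000559).

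All 3 HSP90 genes were lower in the CAPN2-labelled libraries against either other group. HSP90AA1, the inducible cytosolic form, stood at 1586, 1231 and 1546 CPM in the control libraries, 1809, 1847 and 1862 CPM in the knockdown-labelled libraries, and 872, 851 and 804 CPM in the CAPN2-labelled libraries. Its knockdown-labelled libraries lay above control, and its CAPN2-labelled libraries below both. HSP90AB1, the constitutive form, stood at 2868, 3034 and 2978 CPM in the control libraries, 2939.9, 3052 and 3494 CPM in the knockdown-labelled libraries, and 1516, 1568 and 1537 CPM in the CAPN2-labelled libraries. Here control and knockdown-labelled libraries overlapped, and the CAPN2-labelled libraries lay below all 6.

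HSP90AA1 was 2.18-fold and HSP90AB1 2.05-fold lower in the CAPN2-labelled than in the knockdown-labelled libraries (log2 -1.13 ± 0.10, edgeR adjusted p = 2.23e-08; log2 -1.04 ± 0.088, edgeR adjusted p = 2.05e-08). The rise of HSP90AA1 from control to the knockdown-labelled libraries (log2 0.34 ± 0.10, edgeR adjusted p = 0.00963) was not called without control replicate 2, its lowest control library (log2 0.23, adjusted p = 0.0971). TRAP1, the mitochondrial HSP90, stepped down from 164 ± 4.36 CPM in control to 132 ± 7.33 and 92.3 ± 11.6 CPM. Its first step (log2 -0.32 ± 0.094, edgeR adjusted p = 0.0129) was lost without control replicate 3 (adjusted p = 0.0607), without knockdown replicate 2 (adjusted p = 0.0711) and with the GC and length correction. Of its exon bases 29.3% overlap DNASE1 on the other strand, which had 4653 counts in all libraries beside 19606 for TRAP1.

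The small heat shock proteins hold unfolded proteins without using ATP. HSPB1 (HSP27) stood at 381, 415 and 412 CPM in the control libraries, 248, 165 and 253 CPM in the knockdown-labelled libraries, and 107, 105 and 134 CPM in the CAPN2-labelled libraries. Its groups stepped down without overlap, 1.81-fold from control to the knockdown-labelled libraries (log2 -0.86 ± 0.13, edgeR adjusted p = 0.000101) and 1.93-fold from there to the CAPN2-labelled ones (log2 -0.95 ± 0.14, edgeR adjusted p = 1.82e-05). HSPB8, which works with BAG3 in selective autophagy, stood at 0.474, 0.648 and 0.677 CPM in the control libraries, 4.43, 3.04 and 3.63 CPM in the knockdown-labelled libraries, and 0.679, 0.827 and 0.184 CPM in the CAPN2-labelled libraries. It was raised in the knockdown-labelled libraries alone, and the other groups overlapped.

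HSPB8 was the one member with a difference of at least 2-fold between the knockdown-labelled libraries and control, at 6.06-fold (log2 2.60 ± 0.37, edgeR adjusted p = 2.86e-05). In the CAPN2-labelled libraries it was 6.46-fold below the knockdown-labelled ones (log2 -2.69 ± 0.37, edgeR adjusted p = 8.07e-06). Both comparisons use the same 3 knockdown-labelled libraries. The level was low throughout, and the lowest CAPN2-labelled library stood at the limit of 3 counts.

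The mitochondrial chaperonin is a chamber of HSPD1 (HSP60) closed by a lid of HSPE1 (HSP10). HSPD1 stood at 977 ± 28.996 CPM in the control libraries, 962 ± 81.7 CPM in the knockdown-labelled libraries and 561 ± 10.9 CPM in the CAPN2-labelled libraries (SD, n = 3). It fell 1.72-fold between the last 2 (log2 -0.78 ± 0.085, edgeR adjusted p = 4.75e-07). HSPE1 stood at 53.2, 59.8 and 56.0 CPM in the control libraries, 46.5, 44.3 and 54.0 CPM in the knockdown-labelled libraries, and 16.3, 15.2 and 13.5 CPM in the CAPN2-labelled libraries. It fell 3.21-fold (log2 -1.68 ± 0.11, edgeR adjusted p = 7.95e-10), and its CAPN2-labelled libraries lay far below the other 6, which overlapped.

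The fall was larger for the lid than for the chamber. The count ratio of HSPE1 to HSPD1 was 0.0577 ± 0.0051 in control, 0.0502 ± 0.0023 in the knockdown-labelled libraries and 0.0268 ± 0.0022 in the CAPN2-labelled libraries (SD, n = 3). In the comparison of the last 2 the ratios did not overlap (exact two-sided permutation p = 0.1, the smallest possible). The 2 genes lie head to head and share 281 bases of exon on opposite strands, 14.2% of the exon bases of HSPE1, and the library kit does not mark strand. HSPE1 also shared 27.2% of its windows of 50 bases with other genes, HSPE1-MOB4 and pseudogenes, and HSPD1 24.8%, mostly with pseudogenes. The part of such reads in the ratio was not tested.

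Of the 8 J-domain proteins, 4 were lower in the CAPN2-labelled than in the knockdown-labelled libraries and 4 were not called. DNAJA1, a main partner of cytosolic HSP70, stood at 152, 146 and 149 CPM in the control libraries, 150.3, 159 and 191 CPM in the knockdown-labelled libraries, and 84.3, 83.7 and 76.1 CPM in the CAPN2-labelled libraries. Its CAPN2-labelled libraries lay below the other 6 (2.05-fold below the knockdown-labelled ones, log2 -1.03 ± 0.10, edgeR adjusted p = 6.05e-08). DNAJA2, DNAJC7 and the stress-inducible DNAJB1 were lower by log2 -0.72, -0.46 and -0.27, and that of DNAJB1 lost its call with upper-quartile factors (adjusted p = 0.0572). DNAJA3, of mitochondria, was lower than control by the same order in the knockdown-labelled and the CAPN2-labelled libraries (log2 -0.52 and -0.45), at 157 ± 8.45, 109.5 ± 4.89 and 115 ± 7.23 CPM in the 3 groups.

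DNAJB6, which keeps polyglutamine proteins from aggregating, was lower than control in the CAPN2-labelled libraries (log2 -0.38). Against the knockdown-labelled libraries it was called lower there without knockdown replicate 2 (log2 -0.22) and with the GC and length correction (log2 -0.43). Its call between the knockdown-labelled libraries and control (log2 -0.25, edgeR adjusted p = 0.028) was lost when any of the 3 control libraries, knockdown replicate 2 or the CAPN2-labelled replicate 1 was left out, with adjusted p from 0.0554 to 0.151. With the GC and length correction that difference was log2 -0.079 (adjusted p = 0.433). DNAJB2 was higher than control in the CAPN2-labelled libraries (log2 0.32 ± 0.13, edgeR adjusted p = 0.0456), and this was lost without any of control replicates 1 and 3, knockdown replicate 3 and CAPN2-labelled replicates 1 and 3 (adjusted p 0.0561 to 0.253) and in DESeq2 (adjusted p = 0.0852). With TMM factors and all 9 libraries DNAJB4 was called in no comparison, at 30.9 ± 3.27, 34.0 ± 2.79 and 36.5 ± 5.45 CPM. With the GC and length correction it was lower than control in both labelled sets (log2 -0.25 and -0.32), whereas it was called higher than control in the CAPN2-labelled libraries with upper-quartile factors (log2 0.34, adjusted p = 0.0195), in the fit to the 2 groups (log2 0.25, adjusted p = 0.0486) and without CAPN2-labelled replicate 3 (log2 0.35, adjusted p = 0.0238).

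**Figure D2:**
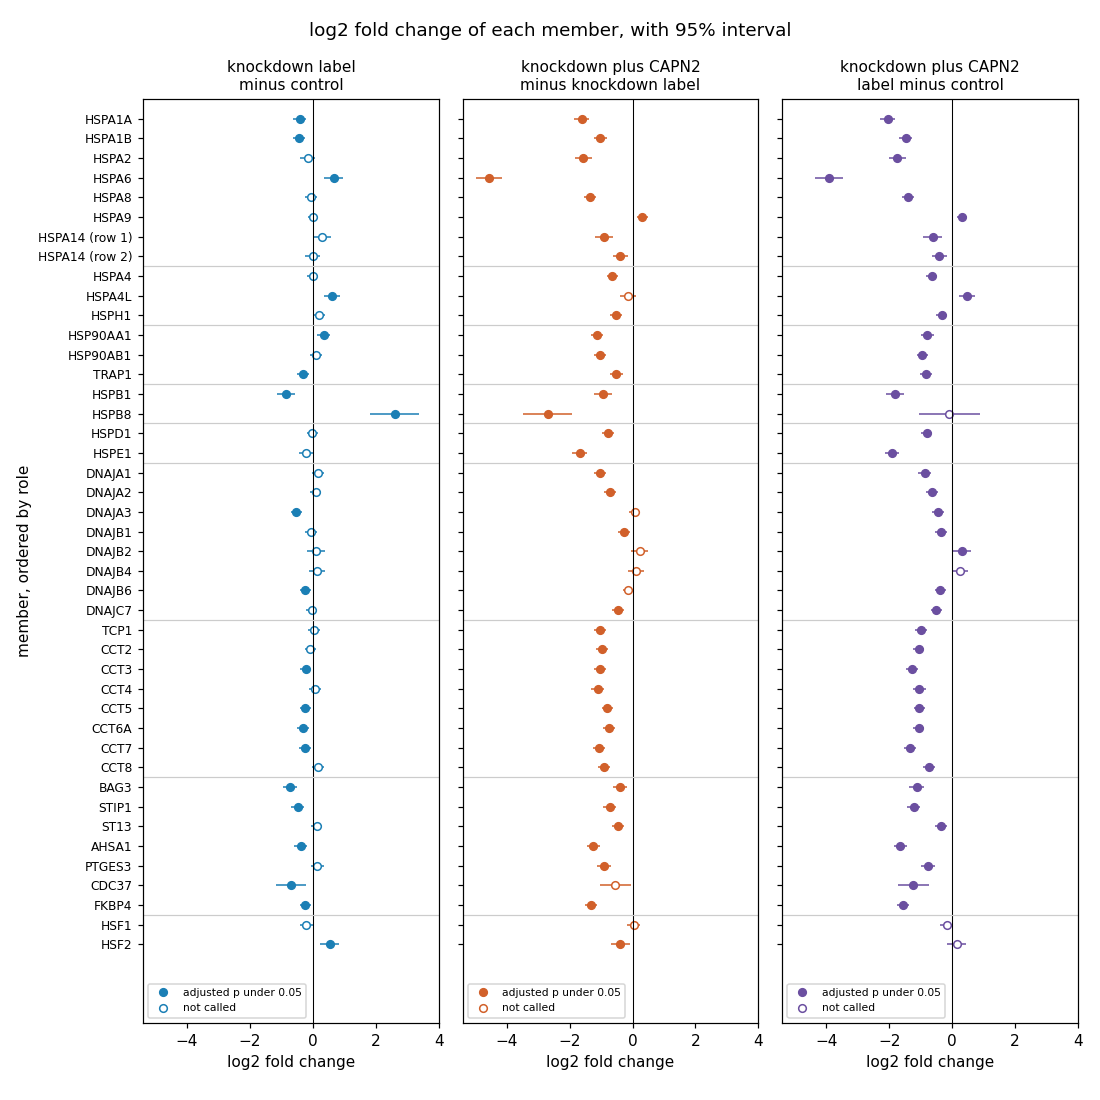
log2 fold change (horizontal axis) of each member row (vertical axis, grouped by role) in the 3 comparisons, with 95% intervals as lines and filled points for an adjusted p under 0.05. In the middle and right panels nearly all filled points lie left of 0, while the first panel has filled points on both sides.

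All 8 subunits of TRiC were lower in the CAPN2-labelled libraries, whichever group they were set against. Each TRiC ring holds 1 copy of every subunit. Against the knockdown-labelled libraries the log2 fold changes lay between -1.11 (CCT4) and -0.74 (CCT6A), and against control between -1.33 (CCT7) and -0.74 (CCT8). For none of the 8 did a CAPN2-labelled library overlap one of another group. The share of all genes without such overlap was not counted. Over all genes tested, 25.6% were called lower against the knockdown-labelled libraries and 28.4% against control. In control the subunits stood between 64.1 RPKM for CCT8 and 156 RPKM for CCT3, and in the CAPN2-labelled libraries between 38.4 RPKM for CCT8 and 67.8 RPKM for CCT6A.

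TCP1, the founding subunit CCT1, stood at 502, 492 and 497 CPM in the control libraries, 458, 502 and 574 CPM in the knockdown-labelled libraries, and 251, 252 and 242 CPM in the CAPN2-labelled libraries. CCT2 stood at 416, 429 and 419 CPM in the control libraries, 374, 376 and 440.2 CPM in the knockdown-labelled libraries, and 205, 205 and 196 CPM in the CAPN2-labelled libraries. CCT4 stood at 388, 384 and 348 CPM in the control libraries, 346, 387 and 439 CPM in the knockdown-labelled libraries, and 184, 187 and 174 CPM in the CAPN2-labelled libraries. In these 3 the knockdown-labelled libraries overlapped control, as in CCT8, and none of the 4 was called in that comparison.

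CCT3 stood at 613, 643 and 629.9 CPM in the control libraries, 534, 494 and 578 CPM in the knockdown-labelled libraries, and 245, 268 and 270.4 CPM in the CAPN2-labelled libraries. CCT5 stood at 757, 779 and 763 CPM in the control libraries, 652, 587 and 704 CPM in the knockdown-labelled libraries, and 357, 381 and 379 CPM in the CAPN2-labelled libraries. CCT6A stood at 573, 538 and 544 CPM in the control libraries, 409.7, 432 and 486 CPM in the knockdown-labelled libraries, and 267, 273 and 252 CPM in the CAPN2-labelled libraries. Their groups stepped down from control through the knockdown-labelled to the CAPN2-labelled libraries with no overlap. CCT7 did the same, at 472, 499.8 and 478 CPM in the control libraries, 418, 357 and 441 CPM in the knockdown-labelled libraries, and 191, 184 and 202 CPM in the CAPN2-labelled libraries. The log2 fold changes of these subunits between the knockdown-labelled libraries and control were -0.23, -0.24, -0.32 and -0.25 in that order. The call of CCT6A (edgeR adjusted p = 0.00722) held under every alternative. Those of CCT3, CCT5 and CCT7 were lost without any 1 control library, without knockdown replicate 2 (adjusted p = 0.207, 0.201 and 0.231) and without the CAPN2-labelled replicate 1 or 2, and that of CCT3 also without replicate 3.

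**Figure D3:**
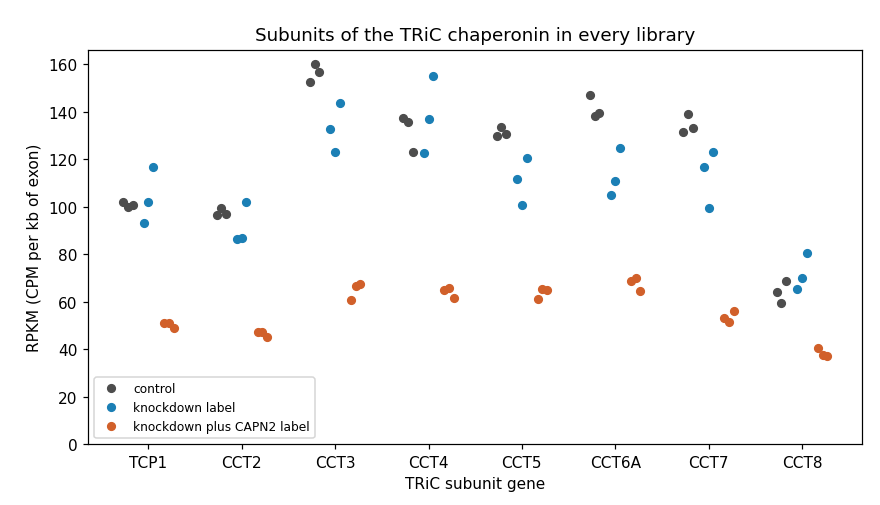
Level of the 8 TRiC subunit genes in RPKM (vertical axis), 1 point per library, with the 3 groups side by side for each gene. For every subunit the 3 CAPN2-labelled libraries lie below the other 6.

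Of the 7 other co-chaperones, all were lower in the CAPN2-labelled libraries than in control and 6 were lower than in the knockdown-labelled libraries. AHSA1, which stimulates the ATPase of HSP90, stood at 325, 362 and 327 CPM in the control libraries, 282, 222 and 269 CPM in the knockdown-labelled libraries, and 101, 109 and 115 CPM in the CAPN2-labelled libraries. FKBP4, a peptidyl-prolyl isomerase of steroid receptor complexes, stood at 268, 288 and 272 CPM in the control libraries, 243, 209 and 249 CPM in the knockdown-labelled libraries, and 89.4, 91.7 and 98.7 CPM in the CAPN2-labelled libraries. STIP1 (HOP), which bridges HSP70 and HSP90, stood at 279, 298 and 299 CPM in the control libraries, 237, 176 and 214 CPM in the knockdown-labelled libraries, and 119, 131 and 128 CPM in the CAPN2-labelled libraries. In all 3 genes the groups stepped down in the same order with no overlap. Between the CAPN2-labelled and the knockdown-labelled libraries the falls were 2.38-fold, 2.51-fold and 1.66-fold (log2 -1.25 ± 0.10, edgeR adjusted p = 6.99e-09; log2 -1.33 ± 0.090, edgeR adjusted p = 9.53e-10; log2 -0.73 ± 0.10, edgeR adjusted p = 6.48e-06).

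BAG3, an exchange factor that leads HSP70 clients to autophagy, stood at 199, 214 and 205 CPM in the control libraries, 137, 98.2 and 135 CPM in the knockdown-labelled libraries, and 91.3, 93.8 and 96.9 CPM in the CAPN2-labelled libraries. Its larger step was the first, 1.67-fold from control to the knockdown-labelled libraries (log2 -0.74 ± 0.11, edgeR adjusted p = 3.34e-05), and the next was 1.31-fold (log2 -0.39 ± 0.11, edgeR adjusted p = 0.00517). CDC37, which recruits kinases to HSP90, stood at 164, 189 and 170.1 CPM in the control libraries, 152, 72.4 and 101 CPM in the knockdown-labelled libraries, and 71.5, 69.8 and 81.9 CPM in the CAPN2-labelled libraries. Its knockdown-labelled libraries were scattered, with 1 near control and 1 within the range of the CAPN2-labelled libraries. CDC37 was 2.34-fold lower than control in the CAPN2-labelled libraries (log2 -1.23 ± 0.22, edgeR adjusted p = 0.000683) and not called between these and the knockdown-labelled ones (log2 -0.54 ± 0.22, edgeR adjusted p = 0.0601), except without knockdown replicate 2 (log2 -0.80, adjusted p = 5.67e-05) and in the fit without a filter.

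The difference of CDC37 between the knockdown-labelled libraries and control (log2 -0.68 ± 0.21, edgeR adjusted p = 0.0305) was lost without control replicate 2 or 3, knockdown replicate 3 or the CAPN2-labelled replicate 1 or 3, with adjusted p from 0.0549 to 0.121, with upper-quartile factors, in the fit to the 2 groups and with the GC and length correction. That of FKBP4 (log2 -0.24 ± 0.088, edgeR adjusted p = 0.0405) was lost without any 1 control library, knockdown replicate 2, or the CAPN2-labelled replicate 1 or 2, with adjusted p from 0.0664 to 0.252. PTGES3, the HSP90 co-chaperone p23, and ST13, the HSP70-interacting protein HIP, fell by log2 0.90 and 0.46 between the CAPN2-labelled and the knockdown-labelled libraries. ST13 had the smaller change of the pair and shares 30.7% of its windows of 50 bases with other genes, mostly pseudogenes.

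The RNA of the 2 transcription factors was at most moderately different between groups. HSF1, the main activator of the heat shock response, stood at 115, 122 and 125 CPM in the control libraries, 106, 93.6 and 112 CPM in the knockdown-labelled libraries, and 96.4, 105 and 119.9 CPM in the CAPN2-labelled libraries. It was called in no comparison over all 9 libraries, with log2 fold changes of -0.21 (95% interval -0.42 to -0.010), 0.043 (-0.16 to 0.25) and -0.17 (-0.38 to 0.033) for the knockdown-labelled libraries against control, the CAPN2-labelled against the knockdown-labelled, and the CAPN2-labelled against control. Against control it was called lower in 2 cases with a library left out, the knockdown-labelled libraries without replicate 3 (log2 -0.27, adjusted p = 0.0463) and the CAPN2-labelled libraries without replicate 3 (log2 -0.27, adjusted p = 0.0416). These values concern its RNA, and its protein and activity were not measured. HSF2, a related factor, stood at 19.8, 17.7 and 19.991 CPM in the control libraries, 20.8, 30.2 and 32.3 CPM in the knockdown-labelled libraries, and 20.2, 23.9 and 19.6 CPM in the CAPN2-labelled libraries. It was higher in the knockdown-labelled libraries than in control (log2 0.54 ± 0.14, edgeR adjusted p = 0.00691) and lower in the CAPN2-labelled than in the knockdown-labelled libraries (log2 -0.39 ± 0.14, edgeR adjusted p = 0.0299). The latter was lost without knockdown replicate 2 or 3 or the CAPN2-labelled replicate 1 or 3, with adjusted p from 0.0557 to 0.145, and with upper-quartile factors (adjusted p = 0.0588), and the 2 groups overlapped.

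**Figure D4:**
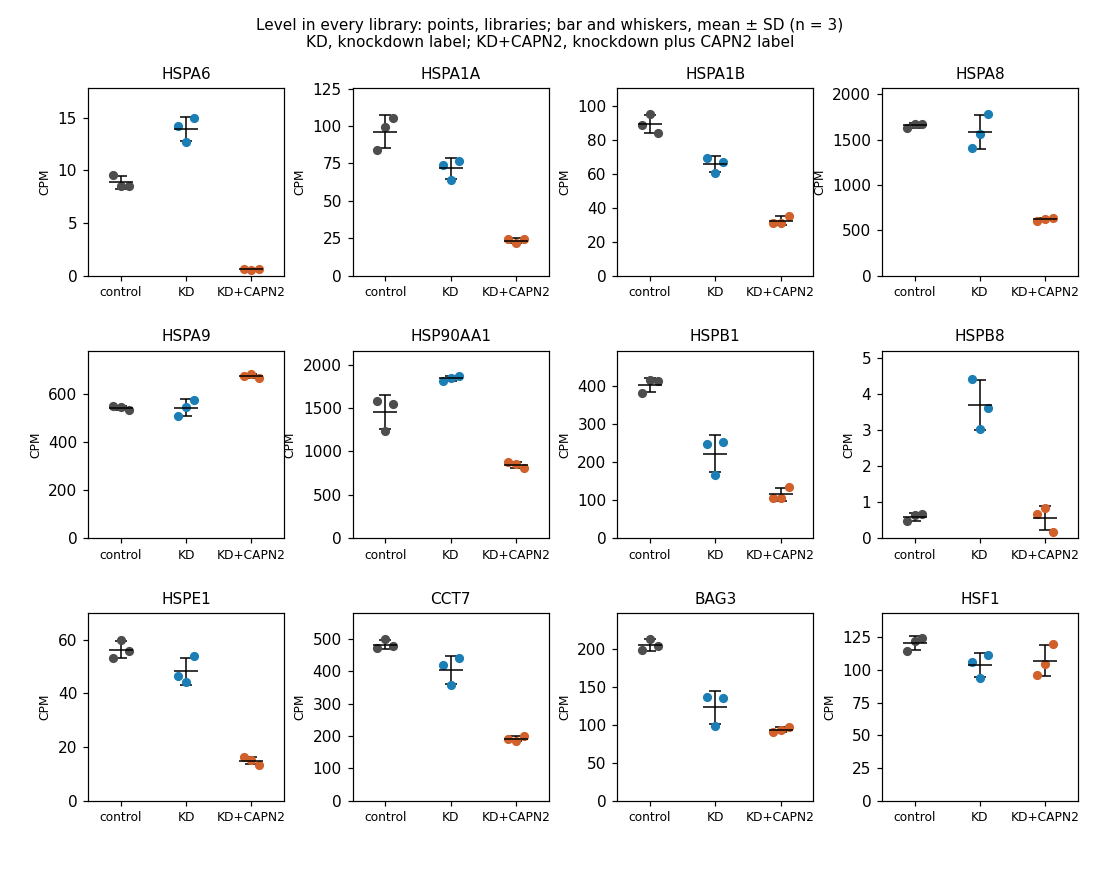
CPM (vertical axis, from 0) of 12 members in each of the 9 libraries, with points for libraries and bars for mean and SD (n = 3). HSPA6 lies near 0 in the CAPN2-labelled libraries, HSPA9 is highest there, HSPB8 is highest in the knockdown-labelled libraries, and the CAPN2-labelled libraries overlap both other groups in HSF1.

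Set side by side, 12 members were lower in all 3 comparisons, namely HSPA1A, HSPA1B, TRAP1, HSPB1, CCT3, CCT5, CCT6A, CCT7, BAG3, STIP1, AHSA1 and FKBP4. A further 19 rows were lower in both comparisons with the CAPN2-labelled libraries and not called between the other groups. How many of all genes tested show each combination of calls was not counted. In single comparisons 18.5% of them were lower in the knockdown-labelled libraries against control. In the CAPN2-labelled libraries 25.6% were lower against the knockdown-labelled ones and 28.4% against control. HSPA6 and HSP90AA1 were higher in the knockdown-labelled libraries than in control and lower in the CAPN2-labelled ones than in either. HSPB8 and HSF2 were higher in the knockdown-labelled libraries, lower again in the CAPN2-labelled ones, and not called between the latter and control. The comparisons share libraries in pairs, so these patterns are no independent repeats of each other. Of the 5 mitochondrial members, HSPD1, HSPE1 and TRAP1 were lower in the CAPN2-labelled than in the knockdown-labelled libraries, DNAJA3 was not called and HSPA9 was higher.

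GC content moved with the differences and is given beside them. Across 16802 genes, Spearman's rho of the log2 fold change with GC content was -0.36 between the knockdown-labelled libraries and control, -0.083 between the CAPN2-labelled and the knockdown-labelled libraries, and -0.29 between the CAPN2-labelled libraries and control. Across the 43 member rows it was -0.62, -0.15 and -0.42. Genes are not independent replicates. With the GC and length correction 37 member rows were lower in each comparison with the CAPN2-labelled libraries, and 14 were lower and 6 higher between the knockdown-labelled libraries and control.

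Other genes of the folding network were taken from 7 lists of 94 genes, of which 85 were tested. Between the CAPN2-labelled and the knockdown-labelled libraries 43 of these (50.6%) were lower, 13 (15.3%) higher and 29 not called, with a median log2 fold change of -0.31. The shares over all genes tested were 25.6% lower and 23.7% higher in this comparison. The lists differed in their counts. Of 8 HSP70 exchange factors 7 were lower and 1, GRPEL2, was higher, a call lost without knockdown replicate 1 or 3 or CAPN2-labelled replicate 1 or 2 (adjusted p 0.0664 to 0.15), with no filter, in the fit to the 2 groups and in DESeq2. BAG2 and GRPEL1, the first cytosolic and the second the exchange factor of HSPA9, fell 1.83-fold and 1.73-fold (log2 -0.87 ± 0.10, edgeR adjusted p = 1.60e-06; log2 -0.79 ± 0.10, edgeR adjusted p = 2.95e-06). Of 16 further co-chaperones 10 were lower and 0 higher, among them FKBP5 (2.36-fold) and the phosphatase PPP5C (1.65-fold).

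Prefoldin hands actin and tubulin to TRiC, and tubulin cofactors act after it. Of these 16 genes 10 were lower and 0 higher, beside 25.6% lower and 23.7% higher over all genes tested. The tubulin cofactor TBCB fell 1.65-fold (log2 -0.73 ± 0.12, edgeR adjusted p = 4.41e-05). Among 11 tested genes known to respond to HSF1, 6 were lower, 0 higher and 5 not called, with CACYBP at 135 ± 21.9 CPM in the knockdown-labelled and 56.4 ± 3.77 CPM in the CAPN2-labelled libraries (2.39-fold, log2 -1.26 ± 0.11, edgeR adjusted p = 2.18e-08). SERPINH1, a collagen chaperone, fell 1.80-fold. Against control, 7 genes of the same list were lower and 2 higher, ZFAND2A (1.66-fold) among the latter. Over all genes tested 28.4% were lower and 27.9% higher there.

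Of 21 other J-domain genes tested, 8 were higher (38.1%), 5 lower (23.8%) and 8 not called, beside 23.7% higher and 25.6% lower over all genes, which also went both ways. DNAJB5 and DNAJC6, the neuronal auxilin, were 2.36-fold and 2.34-fold higher (log2 1.24 ± 0.16, edgeR adjusted p = 3.89e-06; log2 1.23 ± 0.16, edgeR adjusted p = 4.35e-06), and DNAJC8 and DNAJC9 were 1.51-fold and 1.46-fold lower. Of 10 mitochondrial proteases and related genes 2 were higher and 3 lower: LONP1, the matrix protease, rose 1.65-fold (log2 0.72 ± 0.12, edgeR adjusted p = 6.63e-05), while CLPP fell 1.71-fold (log2 -0.77 ± 0.12, edgeR adjusted p = 3.11e-05). In the list of other small heat shock and HSF genes 4 of 11 were tested. HSF4 rose 2.80-fold from a low level (2.47 ± 0.122 to 6.94 ± 0.245 CPM), HSBP1L1 rose 1.39-fold (not called without knockdown replicate 1, adjusted p = 0.0519, or CAPN2-labelled replicate 3, adjusted p = 0.0632, or with no filter, adjusted p = 0.0556), and HSBP1, which binds HSF1, and HSPB11 fell 1.64-fold and 1.54-fold.

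In the comparison of knockdown-labelled libraries with control, 12 of the 85 genes were higher (14.1%), 22 lower (25.9%) and 51 not called, beside 16% higher and 18.5% lower over all genes. The co-chaperone list had 9 lower and 2 higher of 16, with the ubiquitin ligase STUB1 and PPP5C down 1.62-fold and 1.5045-fold (log2 -0.70 ± 0.14, edgeR adjusted p = 0.000587; log2 -0.59 ± 0.12, edgeR adjusted p = 0.000706) and SUGT1 up 1.32-fold, a call lost without control replicate 2 (adjusted p = 0.0538) and with the GC and length correction. Of the mitochondrial proteases 5 of 10 were lower and 0 higher, CLPB by 1.41-fold (log2 -0.50 ± 0.10, edgeR adjusted p = 0.000662). In the other lists 0 to 3 genes were lower. Against control the CAPN2-labelled libraries had 46 of the 85 genes lower (54.1%) and 14 higher (16.5%), beside 28.4% and 27.9% of all genes tested.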

How the data were processed

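RNA of 9 FaDu cultures was sequenced from total RNA extracted with TRIzol, with a NEBNext Ultra kit that does not mark strand, per the labels' protocols. The authors deposited 1 table of raw read counts per gene for 58735 genes, not normalised. HISAT2 2.0.5, StringTie 1.3.3b, featureCounts 1.5.0-p3 and the build hg19 are named per the submitters' processing notes, without roles. Gene positions and lengths in the table equalled those of GENCODE release 29 on GRCh38 in 58735 of 58735 rows, so GRCh38 is given. The treatment of reads that fit several places and of overlapping genes is not given in the sources used here.

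Counts were fitted in R 4.3.3 with edgeR 4.0.16: filterByExpr (minimum 10 counts), which left 16812 genes, TMM factors, 1 term per group over all 9 libraries, robust quasi-likelihood F tests with 6 residual degrees of freedom before moderation, Benjamini-Hochberg adjustment over all genes tested, calls at an adjusted p under 0.05. SE is the absolute log2 fold change over the square root of F. RPKM is TMM-scaled CPM per kilobase of deposited gene length. The steps were tested on simulated data. Replicate numbers did not pair the libraries: correlations of deviations were -0.092 to 0.059 for the 9 same-numbered pairs and -0.17 to 0.12 for the 18 others. No replicates agreed within sampling noise. P-values measure only the spread between these cultures of 1 line.

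All 42 members were named by symbol. Those given by library were called with a difference of at least 2-fold in some comparison, or were HSPA1A, HSPA1B, HSPA6, HSPA8, HSP90AA1, HSP90AB1, HSPB1, HSF1 or HSF2; the values of HSPA9 are given by library as well, which this rule does not ask for and which was chosen after they were seen. Of each other list up to 2 higher and 2 lower genes with the lowest adjusted p were named, except 1 that is not reported here. Members, lists and alternatives were chosen with earlier results of these data known. Alternatives were DESeq2 1.42.0 and its size factors, upper-quartile factors, no filter, a fit to the 2 groups compared, a replicate block, a correction for GC content and length, an adjusted p under 0.01, the sum of HSPA1A, HSPA1B and HSPA6, and each library left out.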

Additional observations from a re-analysis of the deposited data

How the results depend on the processing

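Between the CAPN2-labelled libraries and each other group, the counts of lower members stayed within 1.5 times the reported 35 and 36 under every alternative run, and 33 of 36 and 36 of 39 member calls held throughout. Between the knockdown-labelled libraries and control, 11 of 20 calls held throughout. There the 15 lower members became 9 with upper-quartile factors, 9 in the fit to the 2 groups compared and 8 at an adjusted p under 0.01, and from 8 to 16 with 1 library left out. The 5 higher members ranged from 4 to 9 with 1 library left out. With the GC and length correction the 3 members higher in the CAPN2-labelled libraries than in control became 1. Values that turned sign were HSPA6 between the knockdown-labelled libraries and control when summed with HSPA1A and HSPA1B (-0.36) and, with the GC and length correction, HSPA4L against control in the CAPN2-labelled libraries (-0.10) and DNAJB4 in both comparisons with control (-0.25 and -0.32). The sum holds mostly reads of HSPA1A and HSPA1B, so it does not test HSPA6, whose call held under every other alternative. A further 53 values called neither in the reported fit nor in the alternative changed sign, all within 0.31 of 0, and are not counted as reversed. Beyond what the alternatives themselves change, such as fewer libraries or genes, the cause was not tested. Upper-quartile factors moved the median of all genes from 0.023 to 0.13 between the CAPN2-labelled libraries and control, and the members' median with it, from -0.83 to -0.73.

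With a replicate block, 11 members were lower and 5 higher between the knockdown-labelled libraries and control, 36 lower and 1 higher between the CAPN2-labelled and the knockdown-labelled libraries, and 36 lower and 2 higher between the CAPN2-labelled libraries and control. The block ended the calls of CCT3, CCT5, FKBP4 and DNAJB6 between the knockdown-labelled libraries and control (adjusted p = 0.0614, 0.0544, 0.0641 and 0.0542) and of DNAJB2 between the CAPN2-labelled libraries and control (0.066), ended that of GRPEL2, and added that of CDC37 between the labelled sets (0.0495). The labels share numbers between groups without saying that a number marks a shared culture or day, and the deviations of same-numbered libraries correlated at -0.092 to 0.059. Depth limits HSPB8 and HSPA6, whose CAPN2-labelled libraries hold few reads.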

Other observations

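Some near-identical copies of members carried reads of their own. These were chosen for their likeness to members and not by the rule for named genes. HSPA7, the pseudogene beside HSPA6, stood at 0.879, 0.766 and 1.60 CPM in the control libraries, 2.80, 2.74 and 2.23 CPM in the knockdown-labelled libraries, and 0, 0 and 0 CPM in the CAPN2-labelled libraries. The 0 CPM stands for 0 counts in each of the 3 CAPN2-labelled libraries, which allows up to 0.177 to 0.185 CPM. HSPA7 was thus highest where HSPA6 was highest and lowest where HSPA6 was lowest, and reads shared by both genes cannot be told apart.

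The processed copies of HSP60 and HSP90 stood far below their parents. HSPD1P1 stood at 13.1 ± 0.934 CPM in the control libraries, 10.3 ± 0.120 CPM in the knockdown-labelled and 6.06 ± 1.1175 CPM in the CAPN2-labelled libraries (SD, n = 3). HSP90AB3P stood at 6.69 ± 0.293, 7.77 ± 0.918 and 4.12 ± 0.0205 CPM, and HSP90AA2P at 5.85 ± 1.09, 7.98 ± 0.232 and 3.74 ± 0.414 CPM. Between the CAPN2-labelled and the knockdown-labelled libraries the log2 fold changes of the 3 copies were -0.77, -0.92 and -1.09, beside -0.78, -1.04 and -1.13 for HSPD1, HSP90AB1 and HSP90AA1. Whether these reads came from the copies or from the parents was not tested. HSPE1-MOB4, a read-through gene over HSPE1, had 0 counts in all 9 libraries.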
